A study of Mus musculus with 36 samples.

Results

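The acute phase proteins described here were 10 genes of 23054 measured in mouse liver: the serum amyloid A genes Saa1, Saa2, Saa3 and Saa4, the orosomucoid genes Orm1, Orm2 and Orm3, the lipocalin Lcn2, haptoglobin (Hp) and hemopexin (Hpx). They were taken by gene name from the array's own annotation, which gave 12 probes of 34678. All 12 passed the filter on dim signals, and each gene was read through its brightest probe unless another is named. The study asked what loss of the insulin receptor in hepatocytes does to liver transcripts at 3 times of day. Male mice of 11 weeks, on a C57BL/6J background and eating chow freely, were either insulin receptor knockouts of a line with a floxed exon 4 of Insr and a tamoxifen-inducible Cre that the transthyretin promoter drives in liver (TTR-CreTam; labelled IRLKO, called knockout) or the controls of that line (labelled IRLWT, called control). Livers were taken 8, 12 or 16 h after lights on (ZT8, ZT12, ZT16), with lights off at ZT12, and each of the 6 groups held 6 mice. Neither the time of tamoxifen treatment nor the Cre and Insr alleles of the controls are given in the labels. RNA came from whole liver, in which fewer cells of a type and less RNA per cell cannot be told apart.

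Acute phase proteins are plasma proteins that the liver makes in larger amounts during inflammation, mostly in response to interleukin 6 acting through STAT3 and interleukin 1 acting through NF-kB, with C/EBP factors and glucocorticoids adding to the response. Saa1 and Saa2 encode the inducible serum amyloid A proteins, which travel on high density lipoprotein, and Saa4 encodes the constitutive form. Saa3 is made by macrophages, fat and other tissues as well as by liver. The orosomucoids are carriers of small molecules, Lcn2 binds bacterial iron carriers, and haptoglobin and hemopexin bind free haemoglobin and haem.

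Levels are log2 signals minus the log2 of that array's 75th percentile, so a gene at 0 is as bright as the 75th percentile. Between 53.7% and 63.1% of the spots of an array were well above background, its 75th percentile lay between 311 and 525 intensity units, and no spot was saturated. A gene is called when its adjusted p in limma, with Benjamini-Hochberg adjustment over all 23054 genes, is under 0.05. SE is the standard error of a difference between groups of 6 mice, or of the change of such a difference between times. The p-values set a difference against the spread between these samples, which limma estimates for each gene over all groups together. The targeted gene Insr ran from -1.86 to -1.01 in the 18 control livers and from -3.95 to -2.94 in the 18 knockout livers, without overlap. Knockouts differed from controls in Insr by -1.77, -1.88 and -1.65 at the 3 times in order (limma adjusted p at most 2.87e-11). The exon that its probe reads was not determined here.

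Several members are close copies of each other, so the sequences that read them come first. The Orm1 and Orm3 probes, each placed by the files on the plus strand of chromosome 4 in build mm9 across a gap in the genome (Orm1 at chr4:63007395-63009038, Orm3 at chr4:63018910-63020393), overlap in 52 bases, of which 46 are identical. Capitals mark the 6 bases of each that differ from the other:
Orm1 probe: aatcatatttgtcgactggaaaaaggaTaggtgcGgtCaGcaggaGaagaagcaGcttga
Orm3 probe: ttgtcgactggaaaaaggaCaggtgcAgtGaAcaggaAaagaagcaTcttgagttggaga
The files list transcripts of both Orm1 and Orm2 for the Orm1 probe, so its signal may hold both. The Orm2 probe shares no stretch of this kind with either. The Saa1 and Saa2 probes had 13 of 31 bases in common at their best overlap. Their genes are near-identical paralogs all the same, and the share of their signals that comes from the other gene was not tested.

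Promoters of 8 members were found in the RefSeq table of build GRCm38.p6, and the 250 bases before each start were searched on both strands for 4 motifs. The promoters of the pair that moved most alike (Saa1 and Saa2), of the gene whose genotypes did not overlap at any time (Saa4) and of both genes that were higher in knockouts at ZT8 (Orm3 and Lcn2) are shown, 5′ to 3′ toward the start of the gene, with motif matches in capitals. Saa1 lies at chr7:46742981-46743230 (minus strand), Saa2 at chr7:46751583-46751832 (plus strand), Saa4 at chr7:46732604-46732853 (minus strand), Orm3 at chr4:63355908-63356157 (plus strand) and Lcn2 at chr2:32387740-32387989 (minus strand).
Saa1: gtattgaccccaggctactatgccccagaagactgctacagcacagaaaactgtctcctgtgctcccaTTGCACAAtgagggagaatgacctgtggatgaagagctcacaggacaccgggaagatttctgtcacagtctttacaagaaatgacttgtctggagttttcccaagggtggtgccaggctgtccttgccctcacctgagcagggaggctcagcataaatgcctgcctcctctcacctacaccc
Saa2: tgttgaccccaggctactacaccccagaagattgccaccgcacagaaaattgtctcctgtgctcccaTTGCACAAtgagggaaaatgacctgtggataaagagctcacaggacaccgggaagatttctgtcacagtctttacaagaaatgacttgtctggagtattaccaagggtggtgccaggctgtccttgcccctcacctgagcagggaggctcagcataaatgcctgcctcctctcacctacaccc
Saa4: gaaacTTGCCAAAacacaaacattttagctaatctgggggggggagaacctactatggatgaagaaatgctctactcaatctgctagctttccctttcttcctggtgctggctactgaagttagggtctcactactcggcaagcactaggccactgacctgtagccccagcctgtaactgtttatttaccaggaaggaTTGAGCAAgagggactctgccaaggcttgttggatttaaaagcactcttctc
Orm3: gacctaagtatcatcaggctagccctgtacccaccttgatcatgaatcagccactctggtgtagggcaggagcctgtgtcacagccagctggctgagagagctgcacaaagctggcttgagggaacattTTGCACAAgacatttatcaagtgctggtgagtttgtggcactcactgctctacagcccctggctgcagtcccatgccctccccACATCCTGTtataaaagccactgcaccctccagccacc
Lcn2: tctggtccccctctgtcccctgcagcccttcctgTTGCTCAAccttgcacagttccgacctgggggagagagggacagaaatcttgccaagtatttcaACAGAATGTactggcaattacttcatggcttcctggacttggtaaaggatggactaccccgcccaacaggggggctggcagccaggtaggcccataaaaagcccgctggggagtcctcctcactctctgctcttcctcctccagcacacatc
A C/EBP-type motif, TTGCNNAA, was in 8 of the 8 promoters, against 9.56% of all 32851 promoters of the same length in the table. It starts 182 bases before the start in Saa1 and 183 in Saa2, both with the letters TTGCACAA. The glucocorticoid receptor type motif ACANNNTGT was in 2 of 8, Orm3 and Lcn2, against 5.84%. TTCNNNGAA (STAT type) and an NF-kB type motif (GGG, any 2 bases, then TTTCC) were in 0 of 8, against 7.02% and 1.41%, which says only that these letters are not in these windows. No match overlapped another. The Saa1 and Saa2 promoters were identical at 238 of 251 aligned positions (94.8%), and those of Orm2 and Orm3 at 218 of 255 (85.5%). Matches are a description of the letters, not of binding.

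Between genotypes, Saa4 and haptoglobin were lower in knockouts at all 3 times, and Saa1, Saa2 and Orm1 were lower at ZT12 and ZT16 and not called at ZT8. The lipocalin Lcn2 and Orm3 were called higher at ZT8 and not at ZT12 or ZT16. A second probe of Orm3, mostly at background at ZT8, did not show this higher level. At ZT8, 4 of the 10 genes were called, against 35.4% of all genes: Lcn2 and Orm3 higher (16.7% of all genes were called higher), Saa4 and Hp lower (18.7%). At ZT12, 5 were called, all lower, against 42.2% of all genes called and 22.6% called lower. At ZT16, 5 were again called, all lower, against 39.9% called and 20.0% called lower. The 5 names were the same at ZT12 and ZT16: Saa1, Saa2, Saa4, Orm1 and Hp. Saa4 and Hp were called at all 3 times, as were 19.7% of all genes. Saa3, Orm2 and Hpx were called at none. In time order, the median difference of the 10 was -0.07, -0.39 and -0.44, beside 0.01, -0.02 and 0.00 over all genes. Counted in either direction, the share of members called is near that of all genes at each time.

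**Figure D1:**
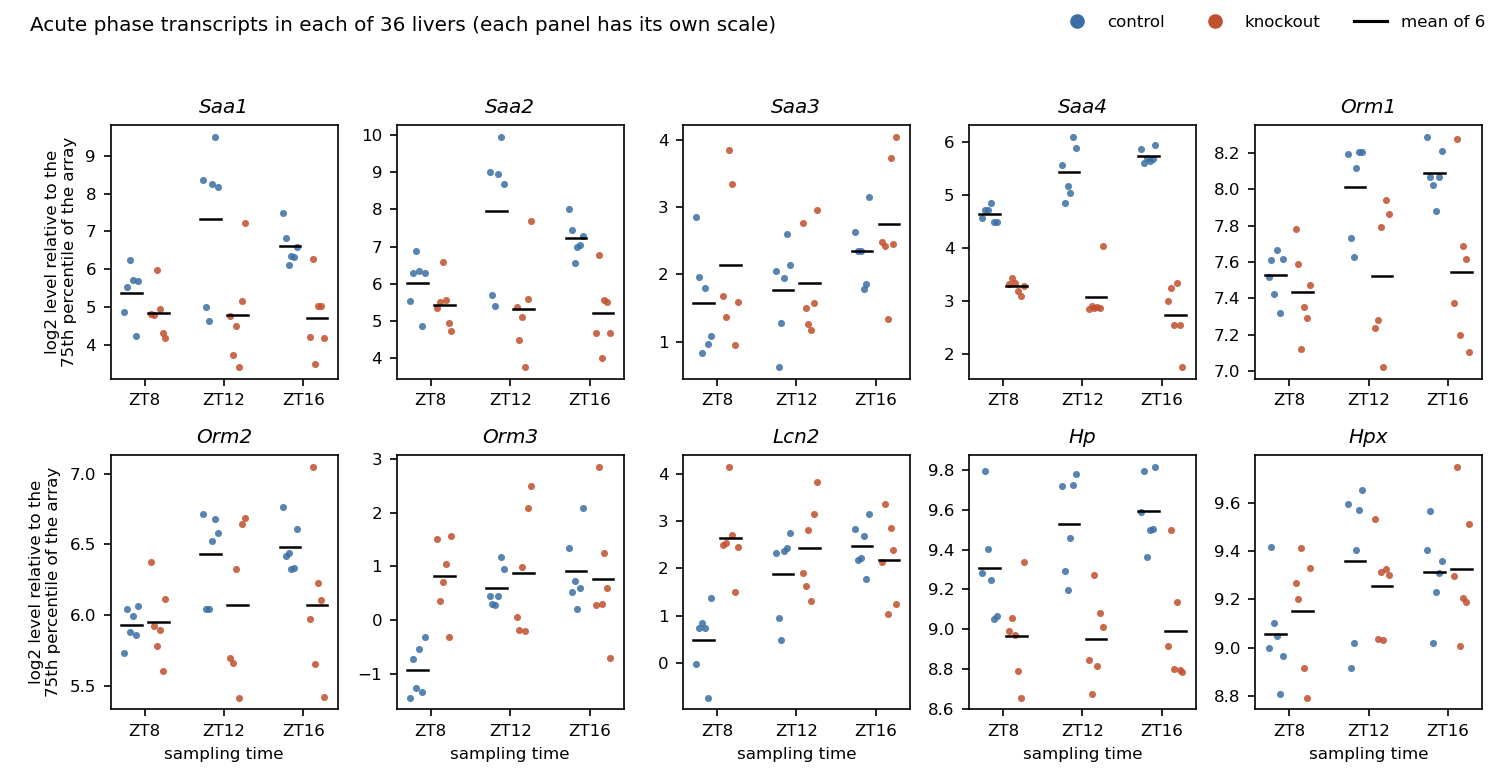
Log2 level minus the array's 75th percentile (vertical axis, a scale of its own in each panel) of the 10 genes in each of 36 livers, by sampling time (horizontal axis). Points are mice, blue for control and orange for knockout, and bars are means of 6. Saa4 separates the genotypes at every time, and Saa1 and Saa2 in control livers at ZT12 fall into 4 high and 2 low livers.

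**Figure D2:**
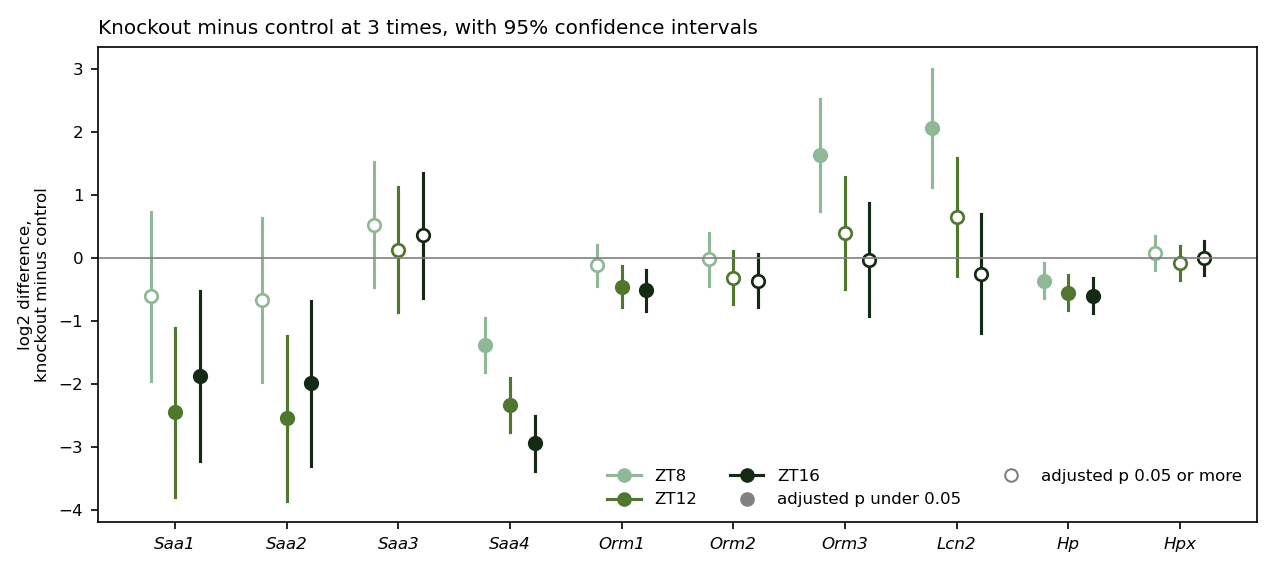
Knockout minus control difference on the log2 scale (vertical axis) for each gene at ZT8, ZT12 and ZT16, with 95% confidence intervals from the limma fit. Filled points have an adjusted p under 0.05. The difference of Saa4 goes from -1.38 to -2.95, while that of Lcn2 goes from 2.06 to -0.25.

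Saa4, the constitutive serum amyloid A, was the member with the smallest adjusted p between genotypes at each time and the largest difference at ZT16. At ZT8 the differences of Lcn2 and Orm3 were larger in size, and at ZT12 those of Saa1 and Saa2. In control livers it ran from 4.49 to 4.85 at ZT8 (median 4.64), from 4.85 to 6.10 at ZT12 (median 5.36) and from 5.61 to 5.94 at ZT16 (median 5.68). In knockout livers it ran from 3.10 to 3.44 (median 3.31), from 2.85 to 4.04 (median 2.89) and from 1.76 to 3.35 (median 2.78) at the same times. Every knockout liver thus lay below every control liver of its time, and the lowest control liver of any time (4.49) lay above the highest knockout liver of any time (4.04). Lack of overlap of this kind was seen for 2 of 10 members at ZT8 (Saa4 and Lcn2, against 15.5% of all genes), and for Saa4 alone among the members at ZT12 (against 21.3%) and at ZT16 (against 19.2%). Its difference (SE 0.21 at each time) was -1.38 at ZT8 with an adjusted p of 5.57e-06, -2.33 at ZT12 with 4.29e-10, and -2.95 at ZT16 with 2.64e-12. These are 2.61-fold, 5.03-fold and 7.71-fold lower levels. The exact two-sided permutation p over 6 against 6 livers was 0.00216 at each time, the smallest that this design can give. At ZT12, knockout replicate 6 (4.04) stood apart from the other 5 knockouts (2.85 to 2.90), and without it the difference was -2.53. Within the 3 batches in which arrays were washed, each holding all 6 groups, the differences were -1.21, -1.54 and -1.40 at ZT8, -2.43, -2.74 and -1.33 at ZT12, and -3.78, -3.01 and -2.34 at ZT16. For every gene, such a batch value rests on only 1 to 3 livers of each group. The -1.33 at ZT12 compares knockout replicate 6 alone with 2 controls.

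Saa1 and Saa2, the inducible forms, were lower in knockouts at ZT12 and ZT16. Saa1 in controls ran from 4.23 to 6.25 at ZT8 (median 5.60), from 4.63 to 9.51 at ZT12 (median 8.22) and from 6.10 to 7.50 at ZT16 (median 6.48). In knockouts it ran from 4.18 to 5.98 (median 4.80), from 3.41 to 7.23 (median 4.62) and from 3.50 to 6.28 (median 4.62). The groups overlapped at each time, with 1, 3 and 5 of the 6 knockouts below every control at ZT8, ZT12 and ZT16. At ZT12 the controls were split, with replicates 3 and 2 at 4.63 and 5.01 and the other 4 between 8.18 and 9.51. The Saa1 difference (SE 0.66 at each time) was -0.61 at ZT8 with an adjusted p of 0.503, -2.45 at ZT12 with 0.00332, and -1.88 at ZT16 with 0.0233. That is a level 5.48-fold lower at ZT12 and 3.67-fold lower at ZT16.

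Saa2 gave nearly the same values, with differences of -0.67 (adjusted p = 0.445), -2.55 (SE 0.64, adjusted p = 0.00188) and -1.99 (SE 0.64, adjusted p = 0.0136) in the order ZT8, ZT12, ZT16. Exact permutation p values at ZT12 were 0.0281 for Saa1 and 0.0195 for Saa2. Within wash batches the ZT12 difference of Saa1 was -3.69 (2 knockouts, 2 controls), -2.97 (3 and 2) and 0.64 (1 and 2). That of Saa2 was -3.76, -3.07 and 0.50. In wash batch 3 the only ZT12 knockout was replicate 6, the highest knockout for both genes, and the 2 controls were replicate 2, a low liver, and replicate 6. Fitted on the 12 ZT12 arrays alone, neither gene was called (adjusted p = 0.0739 for Saa1 and 0.0555 for Saa2). At ZT16 the within-batch differences of Saa1 were -2.76, -2.18 and -0.84. Without knockout ZT16 replicate 3 or without control ZT16 replicate 1, the Saa1 call at ZT16 was lost (highest adjusted p 0.0654).

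Saa3, the form also made outside hepatocytes, was called in no comparison of this study. Its control livers ran from 0.83 to 2.86 at ZT8, 0.62 to 2.61 at ZT12 and 1.79 to 3.15 at ZT16. Its knockout livers ran from 0.96 to 3.85, 1.17 to 2.95 and 1.34 to 4.05. All groups overlapped, and the knockout minus control differences of 0.52, 0.13 and 0.36 had 95% intervals of -0.47 to 1.51, -0.86 to 1.11 and -0.63 to 1.34.

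Lcn2 was higher in knockouts at ZT8. Its control livers ran from -0.72 to 1.37 at ZT8 (median 0.74), 0.49 to 2.74 at ZT12 (median 2.34) and 1.79 to 3.14 at ZT16 (median 2.45). Its knockout livers ran from 1.499 to 4.14 (median 2.52), 1.32 to 3.82 (median 2.35) and 1.04 to 3.36 (median 2.26). The ZT8 groups did not overlap, whereas those at ZT12 and ZT16 did. At ZT8 the difference was 2.06 (SE 0.46, adjusted p = 7.54e-04), a 4.17-fold higher level. It was 0.65 at ZT12, with an adjusted p of 0.269, and -0.25 at ZT16, with 0.699. A second Lcn2 probe, well above background on all 36 arrays, gave 1.98, 0.69 and -0.29, with an adjusted p of 0.00312 at ZT8 over all 34678 probes. On this probe the ZT8 groups did overlap, with 5 of 6 knockouts above every control. For the brightest probe, the ZT8 difference within wash batches was 3.33, 1.09 and 1.504. Knockout ZT8 replicate 3 was the highest liver of its group for Lcn2, Saa1, Saa2, Saa3 and Hpx. Without it the Lcn2 difference at ZT8 was 1.70 (adjusted p = 0.00353) and 3 of the 10 genes were called, the call of Hp being lost at an adjusted p of 0.0524.

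Orm3 differed between genotypes in the same direction as Lcn2 at ZT8. Its control livers ran from -1.43 to -0.31 at ZT8, 0.28 to 1.17 at ZT12 and 0.20 to 2.08 at ZT16, and its knockout livers from -0.32 to 1.56, -0.20 to 2.49 and -0.70 to 2.85. At ZT8, 5 of 6 knockouts lay above every control, the exception being replicate 5. At ZT8 the difference was 1.63 (SE 0.44, adjusted p = 0.00414), a 3.09-fold higher level, and within wash batches it was 1.57, 1.03 and 1.80. It was 0.39 at ZT12, with an adjusted p of 0.496, and -0.03 at ZT16, with 0.962. A second Orm3 probe was well above background on 16 of 36 arrays, namely 0, 5 and 5 of 6 controls and 1, 3 and 2 of 6 knockouts at ZT8, ZT12 and ZT16. At ZT8 it was thus mostly not above background in either genotype, with means of -5.73 in controls and -5.82 in knockouts. The mean of both probes (0.73, adjusted p = 0.193) takes in those background values. On the first probe, ZT8 knockouts (mean 0.82) were near ZT12 and ZT16 controls (0.60 and 0.91), in which the second probe was mostly above background. The probes thus disagree on the ZT8 knockouts, the higher level there rests on the first alone, and the reason was not tested. At ZT16 the difference of the second probe was -1.98 (SE 0.48, adjusted p = 0.00163 over all probes), with 2 knockouts and 5 controls above background, where the first probe was not called.

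The other orosomucoids moved less. Orm1 in controls ran from 7.32 to 7.67 at ZT8, 7.63 to 8.21 at ZT12 and 7.88 to 8.29 at ZT16. In knockouts it ran from 7.12 to 7.78, 7.02 to 7.94 and 7.10 to 8.28, overlapping at each time. Its difference (SE 0.16) was -0.12 at ZT8 with an adjusted p of 0.599, -0.46 at ZT12 with 0.0214, and -0.52 at ZT16 with 0.0108. Within wash batches it was -0.64, -0.50 and -0.10 at ZT12 and -1.06, -0.66 and -0.02 at ZT16. The ZT12 call was lost when only the ZT12 arrays were fitted (adjusted p = 0.0854) and without control ZT12 replicate 1 or 5 or knockout ZT12 replicate 1 or 4 (highest adjusted p 0.0685). Orm2 was called at no time, with differences of -0.02, -0.32 and -0.37 and 95% intervals of -0.44 to 0.40, -0.74 to 0.10 and -0.79 to 0.05.

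Of the scavengers of haemoglobin and haem, haptoglobin was lower in knockouts and hemopexin was not called. Hp in controls ran from 9.05 to 9.79 at ZT8, 9.20 to 9.78 at ZT12 and 9.36 to 9.81 at ZT16. In knockouts it ran from 8.66 to 9.34, 8.68 to 9.27 and 8.79 to 9.50. The groups overlapped at each time, with 4, 5 and 5 of 6 knockouts below every control. The difference (SE 0.14) was -0.37 at ZT8 with an adjusted p of 0.0360, -0.55 at ZT12 with 0.00158, and -0.60 at ZT16 with 7.30e-04, or 77.6%, 68.2% and 65.9% of the control level. Within wash batches it was -0.41, -0.68 and -0.12 at ZT8, -0.53, -0.60 and -0.53 at ZT12, and -1.02, -0.62 and -0.28 at ZT16. The ZT8 call was lost under 7 of 14 other settings (adjusted p 0.0110 to 0.137) and without control ZT8 replicate 1, 2 or 3 or knockout ZT8 replicate 3, 4 or 5 (highest adjusted p 0.124). Hpx differed by 0.07, -0.08 and 0.00, with 95% intervals of -0.20 to 0.34, -0.35 to 0.19 and -0.27 to 0.27.

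Across times in control livers, 6 of the 10 genes rose from ZT8 to ZT12 or ZT16, while Saa3, Orm2, Hp and Hpx were called in neither comparison. In knockout livers no member was called in a time comparison. From ZT8 to ZT12 in controls, 6 of 10 rose, against 14.8% of all genes called and 7.70% called higher: Saa1, Saa2, Saa4, Orm1, Orm3 and Lcn2. The second Lcn2 probe gave 1.31 here and was not called (limma adjusted p = 0.0860 over all probes). That of Orm3 gave 1.44 and was called (adjusted p = 0.0422). Of the 10, only Orm3 had no overlap between ZT12 and ZT8 controls, as had 9.58% of all genes. From ZT8 to ZT16 in controls 4 rose, against 26.6% called and 13.4% called higher: Saa4, Orm1, Orm3 and Lcn2. All 10 differences from ZT8 to ZT16 were positive in controls, with a median of 0.93 beside 0.04 over all genes. For 5 of the 10 (Saa4, Orm1, Orm2, Orm3, Lcn2) every ZT16 control lay above every ZT8 control, as for 15.8% of all genes in either direction. From ZT12 to ZT16 in controls limma called 0 of 10 (3.62% of all genes), and 0 had an unadjusted p under 0.05. The time comparisons within a genotype share samples with each other and with the genotype comparisons.

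**Figure D3:**
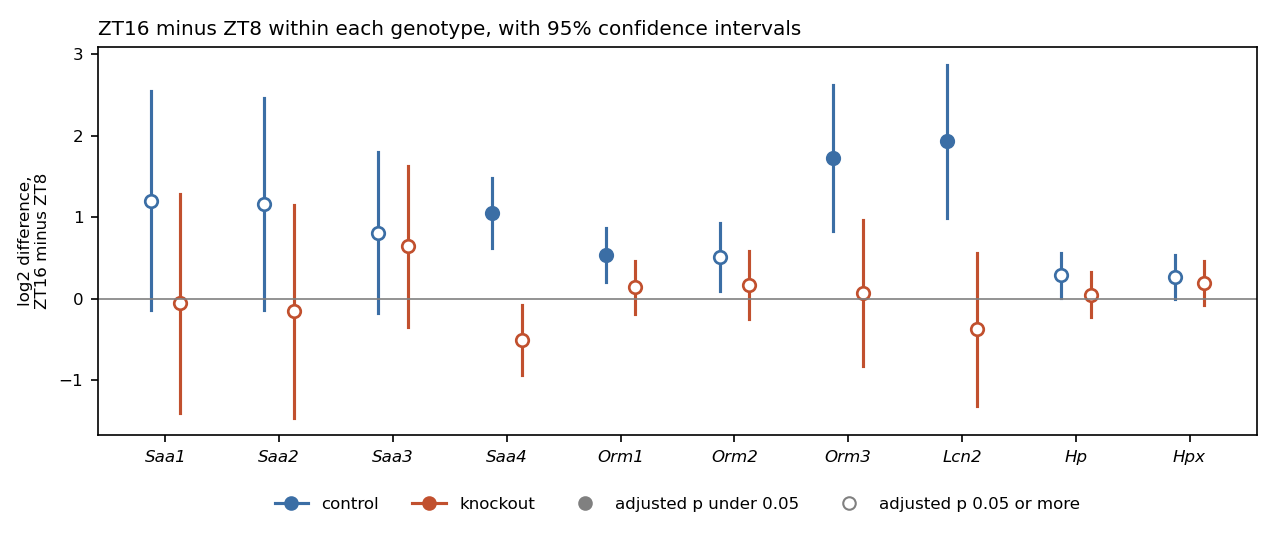
ZT16 minus ZT8 difference on the log2 scale (vertical axis) for each gene in control (blue) and knockout (orange) livers, with 95% confidence intervals from the limma fit. Filled points have an adjusted p under 0.05. Saa4, Orm1, Orm3 and Lcn2 are filled in controls, and no gene is filled in knockouts.

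In control livers, Lcn2 was 1.93 higher at ZT16 than at ZT8 (SE 0.46, adjusted p = 0.00186, 3.81-fold), Orm3 1.73 higher (SE 0.44, adjusted p = 0.00323), Saa4 1.05 higher (SE 0.21, adjusted p = 2.99e-04) and Orm1 0.53 higher (SE 0.16, adjusted p = 0.0125). Every ZT16 control exceeded every ZT8 control for these 4. Saa1 was 1.95 higher at ZT12 than at ZT8 (SE 0.65, adjusted p = 0.0410) and Saa2 1.92 higher (SE 0.64, adjusted p = 0.0375), on the strength of the 4 high livers described above. The count of 6 for ZT12 against ZT8 rested on single livers: it fell to 2 without control ZT12 replicate 1, 4, 5 or 6 or without control ZT8 replicate 1, 4 or 5, to 3 without control ZT8 replicate 6 and to 4 without control ZT8 replicate 2. Without control ZT12 replicate 2 it was 8.

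In knockout livers limma called 0 of 10 from ZT8 to ZT12 (13.2% of all genes), 0 from ZT12 to ZT16 (12.6%) and 0 from ZT8 to ZT16 (28.9%). At an unadjusted p under 0.05 these counts were 0, 0 and 1, the last being Saa4 (-0.51, SE 0.21, adjusted p = 0.0686). The ZT16 minus ZT8 difference was -0.38 for Lcn2, with a 95% interval of -1.32 to 0.56, and -0.06 for Saa1, with an interval of -1.40 to 1.28. The ZT16 and ZT8 knockouts overlapped for all 10 genes, whereas they did not for 9.89% of all genes.

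The difference between the genotypes' time courses was tested directly. The genotype effect at ZT16 minus that at ZT8 was negative for all 10 genes, with a median of -0.83 beside -0.01 over all genes. The 10 signs are not independent, since the members varied together between livers. This change of the genotype effect was called for 2, Saa4 and Lcn2, against 9.75% of all genes called and 4.32% called lower. For Saa4 it was -1.56 (SE 0.30, adjusted p = 7.99e-04), with every ZT16 control above every ZT8 control and 4 of 6 ZT16 knockouts below every ZT8 knockout. For Lcn2 it was -2.31 (SE 0.65, adjusted p = 0.0201), and the second Lcn2 probe gave -2.27 (adjusted p = 0.0450 over all probes). The F test over all 3 times called 1 gene, Saa4 (adjusted p = 0.00274), against 8.46% of all genes, and gave Lcn2 an adjusted p of 0.0560. For the second Lcn2 probe the F test adjusted p was 0.116 over all probes. For Orm3 the difference was -1.66 (SE 0.62, adjusted p = 0.0907), and without knockout ZT16 replicate 2 it was called (-2.06, adjusted p = 0.0253). For Saa1 and Saa2 it was -1.26 and -1.32 (adjusted p = 0.471 and 0.427), so a change of their genotype effect between ZT8 and ZT16 was not shown. Limma called 0 of 10 for ZT12 minus ZT8 (1.25% of all genes) and 0 for ZT16 minus ZT12 (1.95%), and the counts at an unadjusted p under 0.05 were 3 and 1.

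Ordered by mean level, neighbouring groups overlapped in every member except for a gap in Saa4 and in Orm3. The share of all genes with such a gap was not counted. Saa1 and Saa2 were highest in control ZT12, then control ZT16, control ZT8 and knockout ZT8, ZT12 and ZT16. Saa4 ran from control ZT16 (mean 5.74 ± 0.13, SD, n = 6) through control ZT12 (5.43 ± 0.49) and control ZT8 (4.64 ± 0.15) to knockout ZT8 (3.28 ± 0.12), ZT12 (3.07 ± 0.47) and ZT16 (2.74 ± 0.59), with its gap between control ZT8 and knockout ZT8. Orm3 and Lcn2 were both lowest in control ZT8, and for Orm3 that group did not overlap the next.

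Livers of the same group differed strongly in Saa1, and the other members differed with it. After removing group means and wash batch, the residual SD of Saa1 was 1.18, higher than in 99.3% of all genes, whose median was 0.24. It was 1.14 for Saa2, 0.86 for Saa3, 0.82 for Lcn2, 0.78 for Orm3, 0.37 for Saa4, 0.36 for Orm2, 0.28 for Orm1, 0.24 for Hp and 0.23 for Hpx. Over the 36 livers these deviations correlated with those of Saa1 at a Pearson r of 1.00 for Saa2 (Spearman rho 0.99), 0.84 for Lcn2 (0.88), 0.69 for Orm2 (0.70), 0.68 for Hpx (0.65), 0.66 for Saa4 (0.53), 0.66 for Orm1 (0.66), 0.56 for Orm3 (0.64), 0.51 for Hp (0.55) and 0.50 for Saa3 (0.49). Permutation p values within groups, adjusted over the 9 relations, were at most 0.00300 for r and at most 0.00340 for rho, and 1.00e-05 is the smallest raw p that the permutations can give. Without control ZT12 replicates 2 and 3, the livers farthest from the median of Saa1, r lay between 0.44 for Hp and 1.00 for Saa2. Over all other genes the median r with Saa1 was -0.04, and the 5th and 95th percentiles were -0.41 and 0.40.

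**Figure D4:**
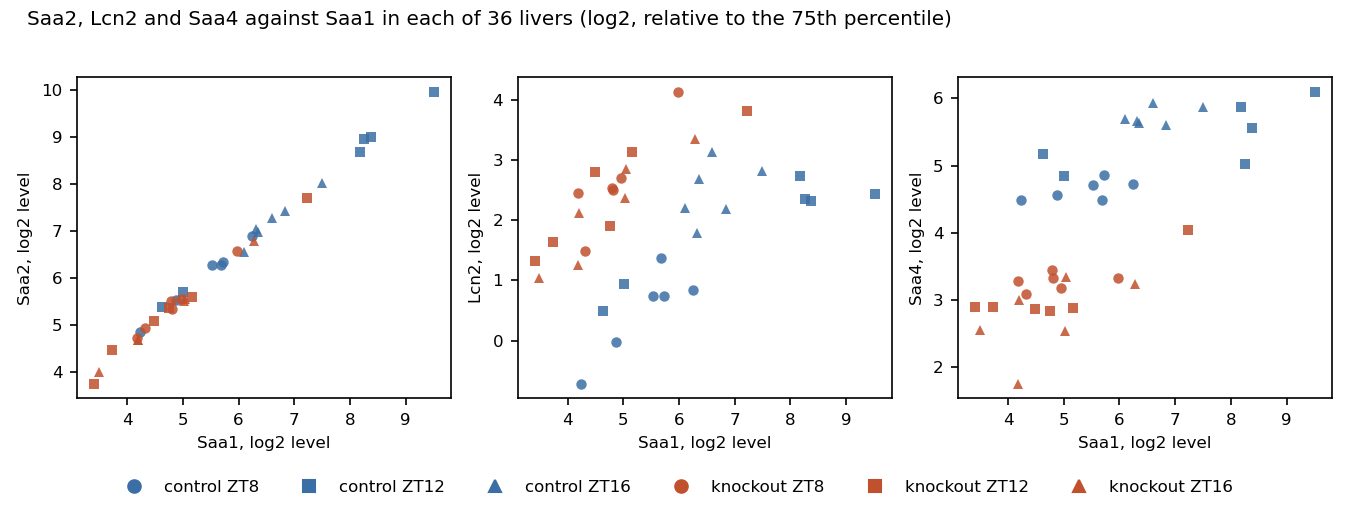
Log2 level of Saa2, Lcn2 and Saa4 (vertical axes) against that of Saa1 (horizontal axes) in each of 36 livers, blue for control and orange for knockout, with circles for ZT8, squares for ZT12 and triangles for ZT16. Saa2 follows Saa1 along 1 line in both genotypes, whereas Saa4 in knockouts (1.76 to 4.04) stays below Saa4 in controls (4.49 to 6.10).

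The same livers were low or high for most members. Of the 6 control livers at ZT12, replicate 2 was among the 2 lowest for 10 of 10 members and replicate 3 for 9 of 10. In knockouts at ZT12, replicate 6 was the highest or second highest for 8 of 10 members and replicate 4 was lowest for 8. Knockout ZT16 replicate 2 was highest for 8 and knockout ZT8 replicate 5 lowest for 7. By the rule for likeness, the 3 other genes whose 6 group means followed those of Saa1 most closely were Mettl7a3 (r = 1.00), Mex3b (r = 1.00) and LOC102641351 (r = 0.99), over 6 groups and with far smaller ranges of group means, of -1.58 to -1.29 for Mettl7a3 against 4.71 to 7.33 for Saa1. They are the top of a search over the 17899 genes above background on every array, members left out, so their r does not show shared regulation.

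Among 26 other proteins that rise in the acute phase, 25 were measured, and changes ran in both directions. In knockouts 8 were higher and 6 lower at ZT8, 10 and 7 at ZT12, and 9 and 7 at ZT16. These and the counts of the other lists stand beside 35.4%, 42.2% and 39.9% of all genes called at ZT8, ZT12 and ZT16. The median difference of the 25 was 0.06, 0.11 and -0.00, beside 0.01, -0.02 and 0.00 over all genes. The interleukin 1 receptor antagonist Il1rn was higher by 3.99, 3.66 and 4.09 at the 3 times (adjusted p at most 1.89e-07). Its probe was well above background on 5, 3 and 1 of 6 controls at ZT8, ZT12 and ZT16, and on every knockout. The control values were thus partly at background at ZT12 and mostly so at ZT16, which leaves the size of these differences uncertain. The metallothionein Mt1 was higher by 2.84 at ZT8 and 2.60 at ZT12 (adjusted p = 7.57e-08 and 2.54e-07), and its difference at ZT16 was 0.67 (adjusted p = 0.108). The serpin gene Serpina3k was lower, with differences of -1.41, -0.999 and -1.23 (adjusted p at most 1.57e-05). The genotype effect at ZT16 minus ZT8 was called higher for the 3 fibrinogen chain genes Fga, Fgb and Fgg and lower for Mt1 and Mt2. These are 5 of 25 genes, against 9.75% of all genes, and were named after their values were seen. Among 11 proteins that fall in the acute phase, 7 were called at ZT8 (3 higher, 4 lower), 8 at ZT12 (3 and 5) and 7 at ZT16 (2 and 5). Transthyretin (Ttr), whose promoter also drives the Cre transgene, differed by -1.12, -1.02 and -0.97, while Apom, the apolipoprotein M gene, was higher by 0.91, 1.24 and 1.02 and Fetub, encoding fetuin B, by 0.43, 0.57 and 0.56 (adjusted p at most 7.00e-05 for these 3 genes).

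Of 14 genes of the interleukin 6 pathway measured, 5 were higher and 1 lower in knockouts at ZT8, 7 and 1 at ZT12, and 5 and 1 at ZT16. In all, 6, 8 and 6 of the 14 were called, beside 35.4%, 42.2% and 39.9% of all genes, and their median difference was 0.31, 0.29 and 0.23. Stat3, the transcription factor of the pathway, was higher by 0.52, 0.56 and 0.68 (adjusted p at most 8.46e-05). Socs3, its feedback inhibitor, was 2.98-fold, 2.14-fold and 2.66-fold higher (adjusted p at most 0.00248). The leptin receptor Lepr, which uses the same transcription factor, was higher by 2.17, 2.28 and 2.26 (adjusted p at most 1.18e-12). Of the receptor chains, Il6ra was higher at ZT8 (0.82, adjusted p = 3.10e-05) and ZT12 (0.38, adjusted p = 0.0286) and differed by -0.29 at ZT16 (adjusted p = 0.104). Il6st, the shared chain gp130, differed by 0.05 at ZT8 (adjusted p = 0.735) and was higher by 0.76 at ZT12 and 0.52 at ZT16 (adjusted p at most 3.40e-05). Their genotype effects at ZT16 minus ZT8 were called in opposite directions, -1.11 for Il6ra (adjusted p = 4.44e-04) and 0.48 for Il6st (adjusted p = 0.0158). Il6 itself did not pass the filter on dim signals.

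Of 19 genes of the interleukin 1, TNF and NF-kB pathways, 4 were higher and 2 lower at ZT8, 6 and 2 at ZT12, and 8 and 3 at ZT16. The 6 and 8 called at ZT8 and ZT12 are near the shares over all genes, 35.4% and 42.2%, and the 11 at ZT16 stand beside 39.9%. Il1rap, the accessory chain of the interleukin 1 receptor, was lower, with differences of -1.26, -1.15 and -1.37 (adjusted p at most 3.67e-09). Nfkb2, a subunit of NF-kB, was higher by 0.64, 0.90 and 0.69 (adjusted p at most 0.00134). The TNF receptor Tnfrsf1a differed by 0.00 at ZT8 and was higher by 0.30 and 0.54 at ZT12 and ZT16 (adjusted p at most 7.68e-04). Of the C/EBP factors, Cebpa was lower, with differences of -0.64, -0.56 and -0.52 (adjusted p at most 2.05e-04). Cebpg was called lower at ZT16 (-0.33, adjusted p = 0.0172) and at neither other time. Cebpb and Cebpd, the factors that inflammation induces, were called in no genotype comparison, with differences between -0.34 and 0.21. Cebpd was 0.82 higher at ZT16 than at ZT8 in controls (adjusted p = 0.00600).

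Of 12 glucocorticoid receptor and target genes, 1 was higher and 4 lower in knockouts at ZT8, 2 and 3 at ZT12, and 1 and 9 at ZT16. The 5 called at ZT8 and at ZT12 are near the shares over all genes (35.4% and 42.2%), and the 9 lower at ZT16 stand beside 20.0% of all genes called lower. The median difference of the 12 was -0.13, -0.33 and -0.76. Nr3c1, the receptor, was lower, with differences of -0.38, -0.56 and -0.67 (adjusted p at most 2.46e-04). Fkbp5, a target and inhibitor of the receptor, differed by 0.39 at ZT8 and -0.29 at ZT12 (adjusted p = 0.233 and 0.358) and was lower, with a difference of -2.45, at ZT16 (adjusted p = 3.08e-09), having risen by 2.73 from ZT8 to ZT16 in controls. Sgk1, a kinase gene, was higher by 0.85, 2.12 and 2.46 (adjusted p at most 0.0173). Of 14 genes for receptors and for clearance of haem, 5, 7 and 5 were called at the 3 times, near the shares over all genes. Scarb1, the receptor for high density lipoprotein, was higher by 0.80, 0.87 and 0.95, and Hmox1, which breaks down haem, by 0.80, 0.79 and 0.81 (adjusted p at most 2.66e-04 for both). Blvra, the next enzyme of haem breakdown, was lower, with differences of -0.36, -0.42 and -0.43 (adjusted p at most 4.74e-04). The haptoglobin receptor Cd163 and the Lcn2 receptor Slc22a17 were called in no genotype comparison.

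Some markers of other cells differed between genotypes. Of 10 Kupffer cell and macrophage markers, all well above background on every array, 2, 5 and 3 were higher in knockouts and 0 lower at ZT8, ZT12 and ZT16, beside 35.4%, 42.2% and 39.9% of all genes called. Their summed linear level ran from 62.1 to 134 in ZT8 controls and 79.2 to 333 in ZT8 knockouts, 46.9 to 152 and 105 to 282 at ZT12, and 55.6 to 199 and 114 to 395 at ZT16. Of 11 markers of neutrophils, which also store Lcn2 protein, 5 were well above background on every array and 1 was higher at ZT8, 1 lower at ZT12, and 3 higher and 1 lower at ZT16. Their summed level ran from 2.78 to 5.05 in ZT8 controls and 2.75 to 17.6 in ZT8 knockouts, 3.50 to 5.48 and 2.70 to 7.78 at ZT12, and 2.20 to 4.77 and 3.44 to 7.17 at ZT16. The highest value, 17.6, was that of knockout ZT8 replicate 3, also the highest for Lcn2, and the other 5 ZT8 knockouts lay between 2.75 and 6.28. Of 8 hepatocyte markers, all well above background on every array, 5 were lower and 1 higher at each time, and their summed level ran from 3130 to 4032 in controls and 2025 to 3003 in knockouts. Of 7 endothelial markers, 0, 6 and 5 were higher and 0 lower at the 3 times. Their summed level ran from 29.9 to 37.4 in controls and 28.3 to 40.2 in knockouts at ZT8, from 26.4 to 33.7 and 34.9 to 50.1 at ZT12, without overlap, and from 28.6 to 42.7 and 39.2 to 48.6 at ZT16. Of 4 monocyte markers 1, 1 and 2 were higher and 0 lower, and of 6 stellate cell and fibroblast markers 0, 2 and 2 were higher and 0 lower. The stellate cell and fibroblast sum did not overlap at ZT12 either, with 36.3 to 64.4 in controls and 68.6 to 78.1 in knockouts. Of 4 lymphocyte markers measured, 2, 3 and 3 were higher and 1 was lower, at ZT12. Of 6 fat cell markers 1, 3 and 1 were lower and 0 higher, and of 5 bile duct markers 1 was lower at ZT12 and 1 higher at ZT16. The fat cell sum at ZT12 was lower in knockouts without overlap, with 0.868 to 1.44 in controls and 0.629 to 0.732 in knockouts. Of 3 red cell genes measured, Hba-a1 was higher at ZT12 and ZT16, Hbb-b1 at ZT12, and Alas2 lower at each time. Not all markers were well above background on every array. Those that were included 2 of 4 monocyte, 2 of 6 fat cell, 2 of 5 bile duct and 3 of 6 listed lymphocyte markers. The part of these markers in the differences of the 10 genes was not tested.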

How the data were processed

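Total liver RNA of 36 mice was measured on 36 one-colour Agilent arrays, 6 per group. Per the file headers, the deposited spot intensity is Feature Extraction 10.10.1.1's processed signal, background subtracted and not normalized between arrays. The deposited 0 or 1 flags for signal above background, saturation and outliers are other values. The authors' own table of log2 values, quantile normalized (its sorted columns differed by 0), served as an alternative, and how it was made is not given in the sources used here. Here log2 signals had the array's 75th percentile subtracted, outlier spots were removed, and replicate spots were averaged per probe. Probes well above background on at least 6 of 36 arrays were kept (34771), 93 with a missing value were dropped, and the brightest probe stood for each of 23054 genes.

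Groups and wash batch (fixed effect) were fitted with limma 3.58.1 in R 4.3.3, tested on simulated data first, and p-values were adjusted by Benjamini-Hochberg over all genes. Permutation tests were two-sided, with 100000 resamples for correlations. Array number limits the precision. The members, lists and motifs were chosen with earlier results of these data known. Named are all members, the 3 genes of each of 7 related lists with the smallest p in a genotype comparison, 10 receptors and factors whatever their values, and Insr. A gene that this rule names, and the count of its list, are not reported here. Alternatives covered background correction, scaling, the authors' table, filters, probe choice, samples fitted, batch, slide, array weights, a replicate block and leaving out each array.

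Replicate numbers of the labels did not pair the mice: 14 of 90 same-numbered pairs across groups had residual correlations over 0.1 (median -0.0045). The labels call the samples replicates without naming separate litters or cages.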

Additional observations from a re-analysis of the deposited data

Results flagged for a closer look

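Saa4 in knockout ZT12 replicate 6 was 4.04, far above the other 5 knockouts of its group. The second Orm3 probe in control ZT16 replicate 6 was -2.20, far above the other 5 controls of its group. These were 2 of 72 groups searched (12 probes in 6 groups), and chance alone puts about 1 in 20 groups past the limit used.

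The genotype effect of Saa4 differed between times, with an F test adjusted p of 0.00274 and a change of -1.56 from ZT8 to ZT16. The genotype effect of Lcn2 at ZT16 minus ZT8 was -2.31.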

How the results depend on the processing

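No setting reversed a called member over all arrays. Within wash batch 3, the ZT12 differences of Saa1 (0.64) and Saa2 (0.50) had the opposite sign, from 1 knockout against 2 controls. The count for ZT12 minus ZT8 in controls, 6, was 3 with quantile normalization, 3 in the authors' table and 2 without the filter on dim probes. The count for the F test, 1, was 2 with normexp background correction, 2 with the filter set to all arrays and 2 without wash batch, Lcn2 being the gene added in each. Fitting only the groups compared gave 2 at ZT12 between genotypes, in place of 5, and 7 for ZT16 minus ZT8 in controls, in place of 4. Median scaling gave 1 for ZT16 minus ZT8 in knockouts (Saa4). A fixed slide block gave 1 for the genotype effect at ZT16 minus ZT8, in place of 2, and array weights gave 1 for ZT12 minus ZT8, in place of 0 (Saa4). The cause was not tested. A sign change where neither value was called is counted as unchanged.

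A replicate block gave 3 in place of 6 for ZT12 minus ZT8 in controls and ended the ZT8 call of Hp between genotypes. The numbers share only a label, and 8 of 36 arrays correlated best with their own number.

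Leaving out 1 array at a time gave 3 to 4 genes at ZT8, 4 to 5 at ZT12 and 4 to 6 at ZT16 between genotypes, and 2 to 8 for ZT12 minus ZT8, 4 to 5 for ZT16 minus ZT8 and 0 to 0 for ZT16 minus ZT12 in controls. In knockouts it gave 0 to 1 for ZT16 minus ZT8. It gave 1 to 2 for the F test, 2 to 3 for the genotype effect at ZT16 minus ZT8 and 0 to 1 at ZT12 minus ZT8. Among the probes of the members, signal over background limits only the second Orm3 probe. Outside the members it also limits Il1rn and some of the cell markers.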
